A study of Homo sapiens with 6 samples.

Results

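SR proteins (serine/arginine-rich splicing factors, genes SRSF1 to SRSF12) were followed at the RNA level in A549 cells after knockdown of SNHG17, a long noncoding RNA, by siRNA. A549 is an established line derived from a human lung adenocarcinoma. The 10 members were taken by name from the deposited table of 54261 gene rows: SRSF1, SRSF2, SRSF3, SRSF4, SRSF5, SRSF6, SRSF7, SRSF9, SRSF10 and SRSF11. All 10 had enough counts to be tested, among 15614 genes tested in all. The si-SNHG17 group (3 libraries) was compared with the si-NC group, A549 cells given a control siRNA (3 libraries). Every library came from this single line, and the sources used here do not state the siRNA sequences, their number, the dose or the time after transfection. The series title ties SNHG17 to growth and migration in non-small cell lung cancer. The comparison asks which transcripts change when SNHG17 is lowered, here among the SR genes.

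An SR protein joins RNA recognition motifs at its amino-terminal end to a tail rich in arginine-serine dipeptides. It binds splicing enhancer sequences in exons and helps the U1 and U2 particles to settle on nearby splice sites, while many hnRNP proteins act in the opposite sense on the same exons. SRPK and CLK kinases phosphorylate the tail and so set where the protein sits in the cell and when it works. SR genes also limit their own output: their transcripts carry poison exons or introns whose inclusion sends the mRNA to nonsense-mediated decay. In lung and other carcinomas SRSF1 is known as a proto-oncogene.

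The knockdown was seen in every library, with SNHG17 at 7.82, 8.39 and 11.3 CPM (counts scaled to a library of 1000000, with library sizes adjusted by TMM) in si-SNHG17 and 38.7, 36.2 and 51.4 CPM in si-NC. Library totals ran from 8643076 to 12477214 counts, which puts each member at 404 to 2213 counts per library. Libraries of the same group differed from each other by 2.25 to 8.85 chi-square units per degree of freedom and libraries of different groups by 38.4 to 55.3, so all 6 were kept as separate samples. Within si-NC, replicate 3 stood apart, at 8.85 and 8.40 units from replicates 1 and 2, which differed from each other by 2.25. The labels do not say that the libraries came from separate cultures, so each p-value rests on library-to-library spread alone, and that spread may be technical. Of the 5 epithelial markers looked at, KRT8, KRT18 and CDH1 fell and KRT19 rose, while EPCAM stood at only 0.479 to 1.71 CPM in the 6 libraries. Their summed level was 4990 to 5000 CPM in si-SNHG17 and 8420 to 9420 CPM in si-NC, and the part of this shift in the results on SR genes was not tested. The leukocyte markers PTPRC and CD3E and the fibroblast markers COL1A2 and COL3A1 had no count in any library, while COL1A1 stood at 25.3 CPM in si-SNHG17 and 24.3 CPM in si-NC (adjusted p = 0.752, edgeR). CD14, which made up nearly all of the leukocyte list's counts, fell from 36.1 CPM in si-NC to 19.6 CPM in si-SNHG17 (log2 fold change -0.88, adjusted p = 0.000169), and its part in the results on SR genes was not tested. In bulk RNA of this kind, fewer cells with a transcript and less of it per cell cannot be told apart.

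The SR genes ranged from 59.5% to 103.1% of their control level. Of the 10, 5 fell (SRSF1, SRSF2, SRSF3, SRSF6 and SRSF7) and none rose, by edgeR's quasi-likelihood test with Benjamini-Hochberg adjustment over all genes and a threshold of 0.05. Over all 15614 genes tested, 19.6% fell and 19.6% rose. Among the 3087 genes with a mean level inside the members' own range, 49.0 to 163 CPM, 25.7% fell and 26.7% rose. The median log2 fold change (si-SNHG17 minus si-NC) was -0.30 over the 10 members and 0.01 over all genes tested, and 9 of the 10 members were below 0, as were 49.2% of all genes tested and 48.9% of those in the members' range. At an unadjusted p under 0.05, 6 members were lower and 0 higher, beside 23.4% and 23.9% of all genes tested, and 29.3% of the genes in the members' range were lower. DESeq2 and limma-voom likewise called 5 members lower and 0 higher. Every si-SNHG17 library lay below every si-NC library for 6 members, as it did for 24.3% of all genes tested and 29.7% of those in the members' range.

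**Figure D1:**
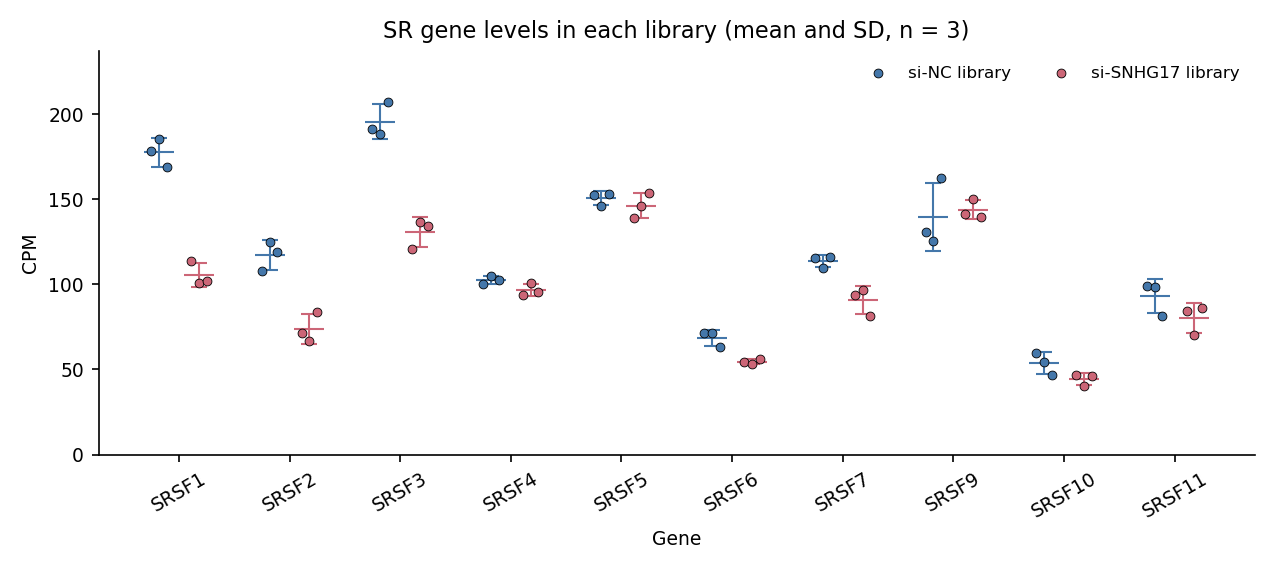
Level of each SR gene in CPM (vertical axis, linear from 0) in the 3 si-NC libraries (blue) and the 3 si-SNHG17 libraries (red), with the mean as a horizontal bar and the SD as the error bar. SRSF1, SRSF2 and SRSF3 separate by the widest gaps, from group means of 178, 117 and 195.5 CPM in si-NC to 106, 73.8 and 131 CPM in si-SNHG17, while the libraries of SRSF4, SRSF5, SRSF9 and SRSF11 overlap.

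The members with a pair of RNA recognition motifs are SRSF1, SRSF4, SRSF5, SRSF6 and SRSF9, and 2 of these 5 fell. SRSF1 (SF2/ASF, chromosome 17, 57989038 to 58007246 on the minus strand, RefSeq on GRCh38.p14) activates enhancer-dependent exons and shuttles between nucleus and cytoplasm. It stood at 114, 101 and 102 CPM in the si-SNHG17 libraries and at 178, 185 and 169 CPM in the si-NC libraries. All 3 si-SNHG17 libraries were lower, with a gap between the groups wider than the range inside either. The means were 106 ± 7.19 and 178 ± 8.36 CPM (SD, n = 3 each), or 59.5% of control. On the log2 scale the change was -0.75 (standard error 0.08, adjusted p = 8.09e-06 by edgeR). This was the largest fall among the 10 members, and it stood at rank 1459 from the lowest log2 fold change among all genes tested. SRSF6 (SRp55, chromosome 20, 43457896 to 43464243, plus strand) regulates alternative exons in epithelial and other tissues. It had 54.3, 53.2 and 56.0 CPM in si-SNHG17 and 71.5, 71.3 and 63.1 CPM in si-NC. The groups did not overlap, and SRSF6 fell by 0.33 on the log2 scale (standard error 0.09, adjusted p = 0.00966 by edgeR) to 79.4% of control.

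The other 3 members of that class did not pass the test. SRSF4 (SRp75, chromosome 1, 29147743 to 29181900, minus strand), which has the longest arginine-serine tail of the classical family, stood at 93.6, 101 and 95.7 CPM in si-SNHG17 and 99.96, 105 and 102.5 CPM in si-NC. Its log2 fold change was -0.08, with a 95% interval from -0.25 to 0.08 (adjusted p = 0.427, edgeR). SRSF5 (SRp40, chromosome 14, 69767142 to 69772005, plus strand), first described as an insulin-induced gene of regenerating liver, stood at 139, 146 and 154 CPM against 153, 146 and 153 CPM. The libraries of the groups interleaved, and the interval of the log2 fold change ran from -0.21 to 0.12 (adjusted p = 0.692). SRSF9 (SRp30c, chromosome 12, 120461672 to 120469748, minus strand), the closest relative of SRSF1, had 141.5, 150.3 and 139.6 CPM against 130.5, 126 and 162.5 CPM. The si-NC libraries of SRSF9 spread far more than the si-SNHG17 libraries (SD 20.02 and 5.70 CPM), with si-NC replicate 3 the highest of the 6. Its log2 fold change was 0.04, with an interval from -0.17 to 0.25 (adjusted p = 0.757), and its sign turned without si-NC replicate 1 (-0.0046) or si-NC replicate 2 (-0.030). The intervals of SRSF4, SRSF5 and SRSF9 lie wholly above the SRSF1 interval, which ran from -0.93 to -0.57.

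All 3 members classed here as having a single RNA recognition motif and a classical tail fell. SRSF10 and SRSF11 were classed apart as atypical and did not pass, so this count depends on how the classes were drawn. The difference between the classes was not tested. SRSF2 (SC35, chromosome 17, 76734115 to 76737411, minus strand) encodes a protein found in nuclear speckles and is mutated in myeloid neoplasms. It stood at 71.3, 66.6 and 83.5 CPM in si-SNHG17. In si-NC it had 108, 125 and 119 CPM. Each si-SNHG17 library was below each control library, and the level was 62.9% of control (log2 fold change -0.67, standard error 0.10, adjusted p = 0.000112 by edgeR). SRSF3 (SRp20, chromosome 6, 36594362 to 36605600, plus strand) is the smallest SR protein and an adaptor for mRNA export. Its levels were 121, 137 and 134.5 CPM against 191, 188 and 207 CPM. It was 66.9% of control, without overlap of the groups (log2 fold change -0.58, standard error 0.08, adjusted p = 7.22e-05).

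SRSF7 (9G8, chromosome 2, 38743599 to 38751494, minus strand) carries a zinc knuckle beside its recognition motif and shares the export adaptor role with SRSF3. It stood at 94.0, 96.7 and 81.3 CPM in si-SNHG17 and at 115, 109.8 and 116 CPM in si-NC. The si-SNHG17 libraries were all lower, with replicate 3 the lowest. SRSF7 fell by 0.32 on the log2 scale (standard error 0.09, adjusted p = 0.00921 by edgeR) to 79.8% of control. Without si-SNHG17 replicate 3 it no longer passed (log2 fold change -0.25, adjusted p = 0.0578).

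The atypical members SRSF10 and SRSF11 did not pass. SRSF10 (SRp38, chromosome 1, 23964347 to 23980327, minus strand) becomes a general splicing repressor when it is dephosphorylated in mitosis or heat shock. It had 46.7, 40.3 and 46.0 CPM in si-SNHG17 and 59.8, 54.6 and 46.8 CPM in si-NC, so that the groups were separate but nearly touched at si-NC replicate 3. The log2 fold change was -0.28 (interval -0.52 to -0.04, adjusted p = 0.061 by edgeR). SRSF11 (p54, chromosome 1, 70205696 to 70253052, plus strand), a divergent relative found in complexes with U2AF, stood at 84.6, 70.2 and 86.0 CPM against 99.3, 98.6 and 81.6 CPM. The groups overlapped through si-NC replicate 3, and the log2 fold change was -0.22 (interval -0.44 to 0.01, adjusted p = 0.121). Without si-NC replicate 3, both passed (SRSF10 at -0.37, adjusted p = 0.00618, and SRSF11 at -0.31, adjusted p = 0.0108), and 7 members were then called lower. Calls over all genes rose as well, to 3266 lower and 3335 higher from 3055 and 3057 with every library.

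**Figure D2:**
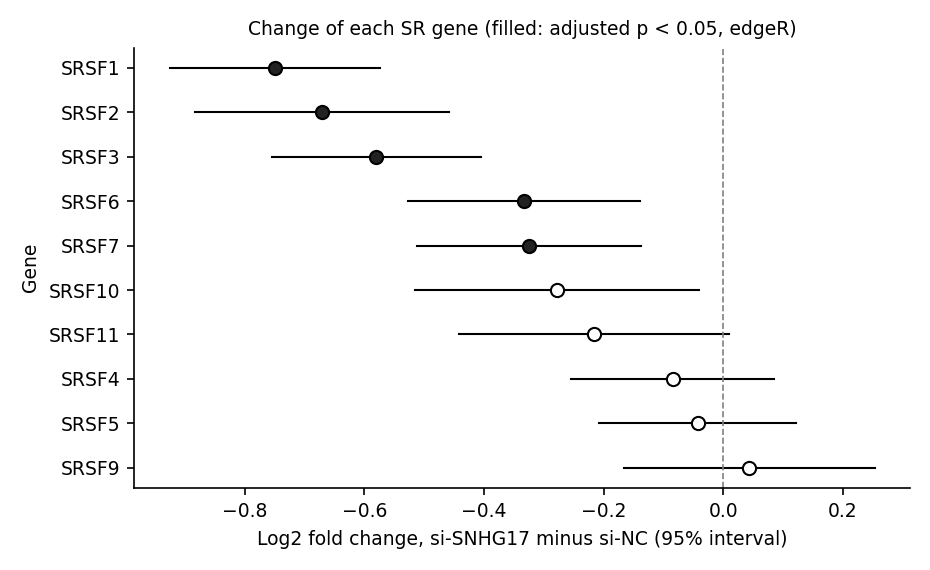
Log2 fold change of each SR gene, si-SNHG17 minus si-NC (horizontal axis), with its 95% interval as a line, ordered by size. Filled points passed an adjusted p of 0.05 by edgeR. SRSF1, SRSF2 and SRSF3 lie from -0.75 to -0.58, SRSF6 and SRSF7 near -0.33, and the intervals of SRSF4, SRSF5, SRSF9 and SRSF11 cross 0.

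The family members outside the 10 were SRSF8, a retrogene close to SRSF2, and SRSF12, a relative of SRSF10 with low expression. SRSF8 stood at 13.2, 15.5 and 12.8 CPM in si-SNHG17 and 16.3, 18.1 and 17.4 CPM in si-NC, all lower without passing (log2 fold change -0.32, adjusted p = 0.0776 by edgeR). SRSF12 held 13 to 25 counts per library and overlapped between the groups (adjusted p = 0.368).

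The summed level of the 10 members was nearly constant within each group. It was 959.5, 962 and 978 CPM in si-SNHG17 and 1206, 1209 and 1221 CPM in si-NC, so the groups stood well apart. The means were 967 ± 10.1 and 1212 ± 7.59 CPM (SD, n = 3 each), which is 79.7% of control. An exact two-sided permutation test over libraries gave p = 0.1, the smallest value that 3 against 3 allows.

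The make-up of that pool differed between the groups. Taking each member's counts as a share of the counts of all 10 removes the scaling of the libraries from the comparison, although shares of a pool move against each other. The share of SRSF1 was 11.9%, 10.5% and 10.4% in si-SNHG17 and 14.8%, 15.3% and 13.8% in si-NC, a difference of -3.72 percentage points. SRSF3 had a mean share of 13.5% ± 0.846 in si-SNHG17 and 16.1% ± 0.755 in si-NC, and SRSF2 7.63% ± 0.825 and 9.68% ± 0.695 (SD, n = 3). In each of these 3 genes all si-SNHG17 libraries lay below all si-NC libraries.

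SRSF4, SRSF5 and SRSF9 took larger shares of the pool in every si-SNHG17 library. SRSF9 held 14.9% ± 0.687 in si-SNHG17 and 11.5% ± 1.58 in si-NC, SRSF5 15.1% ± 0.618 and 12.4% ± 0.323, and SRSF4 10.0% ± 0.396 and 8.46% ± 0.210. By mean share SRSF3 was the most counted of the 10 in si-NC, and SRSF5 in si-SNHG17, where its libraries overlapped those of SRSF9. The shares of SRSF6 (5.64% and 5.66%) and SRSF7 (9.38% and 9.37%) overlapped between the groups: both fell about as much as the pool. SRSF10 and SRSF11 overlapped as well. The exact two-sided permutation test gave p = 0.1 for each of the 6 separated members and 0.167 after adjustment over the 10, and no lower p was possible.

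**Figure D3:**
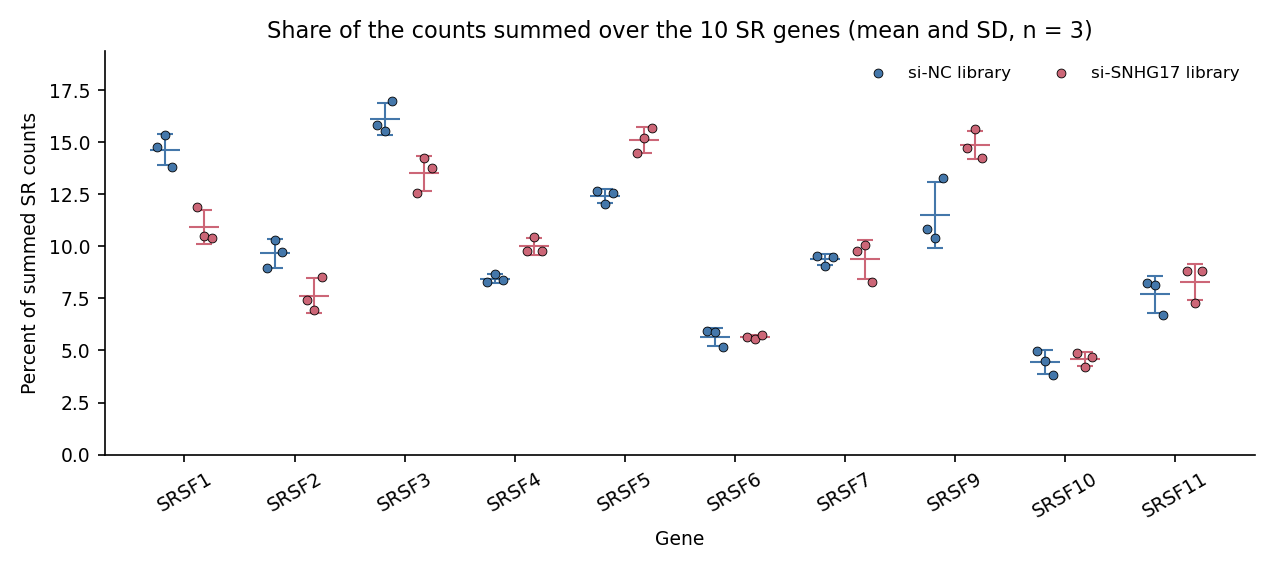
Share of each SR gene in the counts summed over the 10 genes (vertical axis, percent, linear from 0), in the 3 si-NC libraries (blue) and the 3 si-SNHG17 libraries (red), with mean and SD. SRSF1, SRSF2 and SRSF3 lose share, SRSF4, SRSF5 and SRSF9 gain it, and the libraries of SRSF6, SRSF7, SRSF10 and SRSF11 overlap.

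Apart from the count shares above, which take no account of length, levels were compared between members as CPM per kilobase. The length was that of the exons of their protein-coding transcripts (GENCODE release 29, basic set, 1201 bases for SRSF9 to 6102 for SRSF10). These lengths depend on which transcript ends are annotated, and the true ends in A549 cells were not measured. In si-NC, SRSF9 had the highest level per kilobase at 116 ± 16.7, followed by SRSF1 at 55.4 ± 2.60. SRSF7 (45.6), SRSF5 (45.5), SRSF3 (44.6), SRSF4 (43.0) and SRSF2 (40.1) came next, and each of these overlapped its neighbour in the order. SRSF11 (20.5), SRSF6 (15.9) and SRSF10 (8.81) were lowest, each apart from the next.

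In si-SNHG17 the order per kilobase was SRSF9 (119.7 ± 4.75), SRSF5 (44.1), SRSF4 (40.5), SRSF7 (36.4), SRSF1 (33.0), SRSF3 (29.8), SRSF2 (25.2), SRSF11 (17.7), SRSF6 (12.6) and SRSF10 (7.27). SRSF1 thus went from the second to the fifth place. The ranges of SRSF5 and SRSF4, of SRSF7 and SRSF1, and of SRSF3 and SRSF2 overlapped, and the other neighbours were apart.

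The counts are per gene and do not tell productive transcripts from those with poison exons. GENCODE release 29 lists at least 1 transcript of the nonsense-mediated decay class for each of the 10 members, with 6 for SRSF7, 3 for SRSF1 and 1 each for SRSF5, SRSF6 and SRSF9. Transcripts with a retained intron are listed for 8 of the 10, most for SRSF5 (8), and none for SRSF6 and SRSF11. How much each class adds to a member's count was not measured.

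Reads could be shared between a member and its copies or neighbours, and the sources used here do not state how such reads were counted. Of the pseudogene copies in the table, SRSF9P1 held 78 counts over the 6 libraries (0.905% of SRSF9) and SRSF11P1 14 counts (0.270% of SRSF11), while SRSF1P1, SRSF10P1 and SRSF10P2 had 2 counts or fewer. SRSF2 overlaps MFSD11 on the opposite strand (74 to 117 counts per library) and the hairpin gene MIR636 on its own strand (0 to 2 counts). SRSF9 overlaps GATC on the opposite strand (48 to 79 counts). AC015813.2 and AC015813.5 over SRSF1, AC005837.2 over SRSF2, RF02271 within SRSF4 and AL353771.1 over SRSF11 are annotated by GENCODE and have no row of that name in the table. Some rows of related genes were near 0, for a cause that was not tested: LUC7L2 had 0 to 2 counts per library beside 726 to 963 in the row C7orf55-LUC7L2, and HNRNPA3 had 1 to 5.

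Promoter windows are shown for the lowered members that RefSeq's promoter table (GRCh38.p14) holds, and for SRSF5 and SRSF9 as members that did not pass. SRSF4, SRSF10 and SRSF11 did not pass either and are not printed. The windows of SRSF4 and SRSF10 held matches to the searched motifs, and those of SRSF5, SRSF9 and SRSF11 held none. The lines shown are therefore no contrast of lowered members with the rest. Whether promoters had a part in the changes was not tested. Of the 10 members 9 had an entry, and SRSF2 had none. Each line below is the 150 bases just before the annotated start (the most upstream start for SRSF7), 5′ to 3′ on the strand of the gene, in lower case with matches to the searched motifs, on either strand, in capitals. The stretches are chr17:58007247-58007396 (minus strand) for SRSF1, chr6:36594212-36594361 (plus) for SRSF3, chr20:43457746-43457895 (plus) for SRSF6, chr2:38751495-38751644 (minus) for SRSF7, chr14:69766992-69767141 (plus) for SRSF5 and chr12:120469749-120469898 (minus) for SRSF9.
SRSF1: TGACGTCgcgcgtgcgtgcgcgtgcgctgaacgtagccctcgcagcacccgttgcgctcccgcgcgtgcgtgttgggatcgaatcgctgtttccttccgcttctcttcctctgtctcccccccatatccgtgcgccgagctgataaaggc
SRSF3: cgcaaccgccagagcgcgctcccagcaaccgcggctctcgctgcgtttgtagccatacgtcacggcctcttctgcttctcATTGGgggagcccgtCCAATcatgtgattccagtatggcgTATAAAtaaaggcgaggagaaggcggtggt
SRSF6: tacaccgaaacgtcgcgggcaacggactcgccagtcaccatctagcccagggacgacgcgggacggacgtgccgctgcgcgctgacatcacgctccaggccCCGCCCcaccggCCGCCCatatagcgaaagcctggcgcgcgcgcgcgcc
SRSF7: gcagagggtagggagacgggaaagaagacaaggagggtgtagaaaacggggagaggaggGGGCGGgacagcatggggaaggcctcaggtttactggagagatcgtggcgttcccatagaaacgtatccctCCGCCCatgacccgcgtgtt
SRSF5: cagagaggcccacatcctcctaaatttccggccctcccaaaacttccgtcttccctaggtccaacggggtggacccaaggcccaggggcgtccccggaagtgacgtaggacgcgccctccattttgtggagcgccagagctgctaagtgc
SRSF9: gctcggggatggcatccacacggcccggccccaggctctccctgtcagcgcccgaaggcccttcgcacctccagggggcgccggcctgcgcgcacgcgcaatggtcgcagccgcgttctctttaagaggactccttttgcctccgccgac

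The motifs were searched on both strands of the whole windows, from 250 bases before the start to 50 after it. They were TATAAA, the box bound by TBP, then CCAAT, bound by NF-Y, then GGGCGG, the GC box of Sp1, then CACGTG, the E-box of Myc and its relatives, then GCGGGAA, an E2F-type site, and lastly TGACGTC, most of a cAMP response element. No match to a motif in a member overlapped a match to another. The SRSF3 window held TATAAA at positions -30 to -25 and CCAAT at -70 to -66 and -55 to -51, and was the only member window with either. The SRSF1 window held TGACGTC at -150 to -144, also alone among the members. GGGCGG occurred in SRSF4, SRSF6 and SRSF7, GCGGGAA in SRSF4 and SRSF10, and CACGTG in none.

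Among the 14056 windows of the genes tested, 6.04% held TATAAA, 34.3% CCAAT, 66.5% GGGCGG, 9.38% CACGTG, 9.65% GCGGGAA and 4.94% TGACGTC. No motif was common to the 4 lowered members with an entry. Median GC content was 63.0% over the 9 member windows and 65.0% over those of the genes tested. A match describes the letters in a window, not a binding site.

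Some kinases that act on SR proteins rose. Of 9 genes for SR kinases and nuclear import, 3 rose (33.3%) and none fell by edgeR. Over all genes tested 19.6% rose and 19.6% fell, and 26.7% and 25.7% of those in the members' range of mean CPM. At an unadjusted p under 0.05, 3 were higher and 0 lower, beside 23.9% and 23.4% of all genes tested. CLK1, a nuclear kinase of SR tails, stood at 78.3, 66.5 and 91.6 CPM in si-SNHG17 and 49.98, 39.9 and 48.3 CPM in si-NC. The groups did not overlap (log2 fold change 0.77, adjusted p = 0.000229). SRPK2 rose from 53.5 ± 3.69 to 78.8 ± 2.89 CPM (log2 fold change 0.56, adjusted p = 0.000231) and SRPK1, a mainly cytoplasmic kinase that primes SR proteins for import, from 94.7 ± 4.43 to 124 ± 4.82 CPM (0.39, adjusted p = 0.00157). The importin TNPO3, which carries SR proteins into the nucleus, was at 0.12 (adjusted p = 0.468), and CLK3 at -0.53 on 2.13 and 3.04 CPM (adjusted p = 0.158).

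Of 19 SR-like and SR-related genes tested, 5 fell and 1 rose (26.3% and 5.26%), with a median log2 fold change of -0.10. The share of falls was near that of genes in the members' range of mean CPM, where 25.7% fell and 26.7% rose. Over all genes tested 19.6% fell and 19.6% rose. TRA2B, which binds GAA-rich enhancers, stood at 83.8, 87.6 and 79.1 CPM in si-SNHG17 against 105, 122.5 and 115 CPM, and fell by 0.45 (adjusted p = 0.000938, edgeR). The U1-associated LUC7L3 (-0.35), the desmosome- and speckle-located PNN (-0.37), SRRT, which links the cap to RNA processing (-0.37), and SCAF11 (-0.37) fell as well, and the polymerase-binding SCAF4 rose (0.46). SCAF11 was the only one of the 5 falls whose groups overlapped, with si-SNHG17 replicate 3 at 57.3 CPM and si-NC replicate 3 at 56.2 CPM. Without si-SNHG17 replicate 2, 2 of these genes were called lower and 2 higher. The paralog TRA2A (0.05, adjusted p = 0.731) and the speckle scaffolds SRRM2 (-0.05, adjusted p = 0.745) and SON (0.04, adjusted p = 0.895) did not pass.

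Of 21 hnRNP genes tested, 10 fell and 1 rose (47.6% and 4.76%), with a median of -0.22. The shares were 19.6% and 19.6% over all genes tested, and 25.7% and 26.7% in the members' range of mean CPM. HNRNPAB fell by 0.54 (181 to 125 CPM, adjusted p = 0.000108), HNRNPL, a binder of CA-rich RNA, by 0.50 (289 to 205 CPM), HNRNPA2B1 by 0.50 (709 to 500.4 CPM) and HNRNPR by 0.48 (206 to 148 CPM). HNRNPF, a binder of G-runs, rose from 434 ± 8.24 to 594 ± 15.6 CPM (log2 fold change 0.45, adjusted p = 0.000151). HNRNPA1, the textbook antagonist of SRSF1 in the choice of 5′ splice sites, had 92.2, 111.5 and 111 CPM in si-SNHG17 and 92.8, 93.0 and 102 CPM in si-NC. These values overlapped (log2 fold change 0.13, interval -0.07 to 0.33, adjusted p = 0.311). The difference between these lists and the SR genes was not tested.

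**Figure D4:**
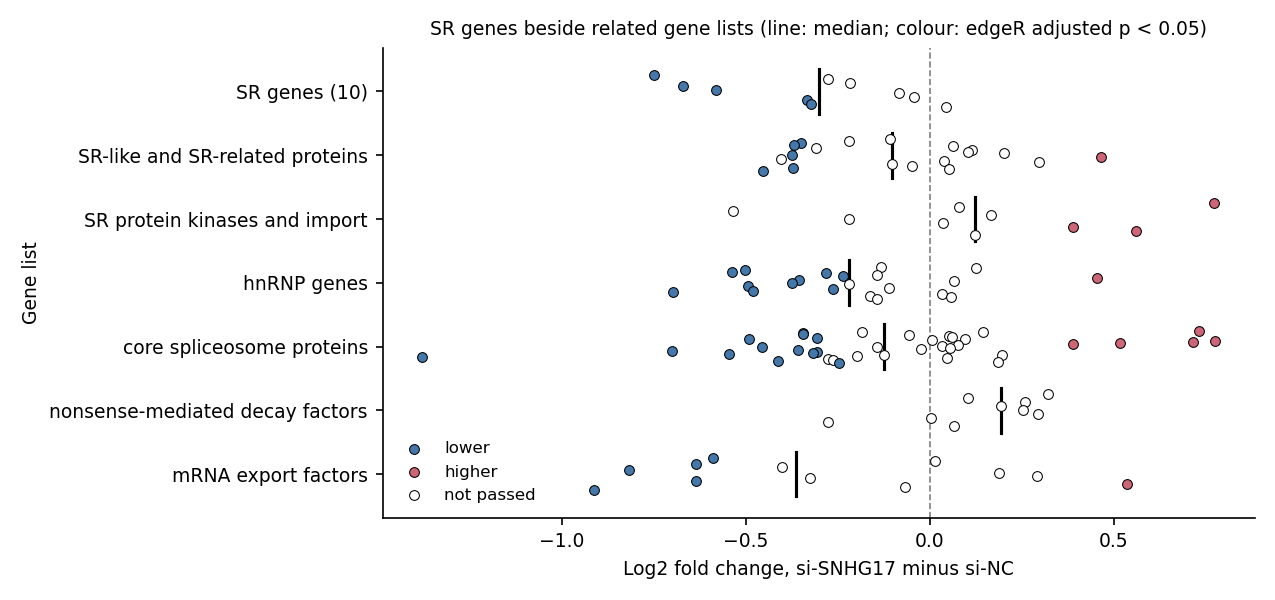
Log2 fold change (horizontal axis, si-SNHG17 minus si-NC) of the 10 SR genes and of the tested genes of 6 related lists (rows), 1 point per gene, with the median of each row as a vertical line. Blue points fell and red points rose by edgeR's adjusted p, and white points did not pass; the row medians run from -0.36 for the mRNA export factors to 0.19 for the nonsense-mediated decay factors, with -0.30 for the SR genes.

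By library pattern, the genes nearest to the mean log2 CPM of the 10 members over the 6 libraries were HSP90AA2P (Pearson r = 0.9992), CA12 (0.9991), CMTM6 (0.999), HDAC1 (0.9987) and C8orf33 (0.9986), out of 7346 other genes with a mean of at least 20 CPM. The 6 libraries form 2 groups, so any gene with a clean difference between them scores high, and 838 of these genes exceeded 0.95. Their falls differed in size, from -0.31 for C8orf33 to -2.58 for CA12.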

How the data were processed

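RNA of 6 A549 libraries was measured by single-end RNA-seq on an Ion Proton, per the labels' protocols. The authors deposited 1 table of whole-number counts by gene, without normalization. The build is GRCh38, per the submitters' processing notes; the sources used here do not name the aligner, counter, annotation or strand use. Groups and columns came from the titles.

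The test ran over all genes in edgeR 4.0.16 (R 4.3.3): filterByExpr, TMM (factors 0.975 to 1.02), glmQLFit and glmQLFTest on a design of group alone, Benjamini-Hochberg adjustment over 15614 genes. The procedure was tested on simulated data. Intervals cover 95%. Alternatives were 3 other scalings, 2 other filters, DESeq2 1.42.0, limma-voom (limma 3.58.1), a replicate block and leaving out each library. A count of 0 allows up to 3 counts (0.240 to 0.347 CPM, counting error only). Positions and promoters came from RefSeq, transcripts from GENCODE release 29, read in Python 3.11.15. The members and lists were chosen with earlier results of these data known. All members were named; of each related list, up to 5 genes by smallest p, plus genes chosen after their values were seen (SCAF11, TRA2A, SRRM2, SON, TNPO3, HNRNPA1, THOC3, NXF1, U2AF1, UPF1).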

Additional observations from a re-analysis of the deposited data

How the results depend on the processing

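All alternatives were marked as planned, without a record of when they were chosen. The 5 falls and 0 rises among the members held under DESeq2 size factors, upper quartile scaling, library totals, both other filters, DESeq2 and limma-voom. Leaving out each library gave 4 to 7 falls and 0 rises: SRSF7 was lost without si-SNHG17 replicate 3, and SRSF10 and SRSF11 were gained without si-NC replicate 3. Over all genes the same fits called 2438 to 3266 lower and 2473 to 3335 higher. SRSF1 ran from -0.80 to -0.71, SRSF2 from -0.76 to -0.60 and SRSF3 from -0.61 to -0.52 over the 14 alternatives. SRSF9, not past the threshold, turned to -0.004565 without si-NC replicate 1 and -0.0301 without si-NC replicate 2, reached 0.1669 without si-NC replicate 3, and the cause was not tested. The replicate block called 5 members lower and 5579 genes in all, 5515 of them shared with the 6112 called without it. Libraries of like number had correlations of deviations of 0.06, -0.11 and -0.09, so the numbers were not taken to pair them.

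Of 196 counts for the related lists, 9 moved, either by over 1.5 times or between 0 and another value. Rises among nonsense-mediated decay factors numbered 3 with library totals and 2 with no low-count filter, and rises among mRNA export factors 2 with library totals, against 0 and 1. Without each library, rises among nonsense-mediated decay factors ran from 0 to 2, falls among SR kinase and import genes from 0 to 1, and SR-like and SR-related genes from 1 to 2 rises and 2 to 6 falls. Depth limits SRSF12 (13 to 25 counts per library); the causes were not tested.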

Other observations

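Other parts of the splicing and export machinery, from lists not described above, moved in both directions. Of 37 core spliceosome genes tested, 13 fell and 5 rose by edgeR (35.1% and 13.5%), with a median log2 fold change of -0.12. Genes at large also moved in both directions: 19.6% of all tested fell and 19.6% rose. Among genes in the SR members' range of mean CPM the shares were 25.7% and 26.7%. SNRPD2, a ring protein of the spliceosomal snRNPs, fell from 615 ± 43.9 to 236 ± 9.01 CPM (log2 fold change -1.38, adjusted p = 2.10e-08). SNRNP70, the U1 protein that SR tails contact, fell from 205 to 126 CPM (-0.70, adjusted p = 3.83e-05). All 3 subunits of the SF3A complex of the U2 particle rose: SF3A1 (0.78), SF3A2 (0.71) and SF3A3 (0.52). U2AF1, the small subunit of the factor that SR proteins help onto 3′ splice sites, stood at 34.6, 10.5 and 12.8 CPM in si-SNHG17 and 19.2, 17.9 and 13.6 CPM in si-NC. It did not pass (adjusted p = 0.691), with si-SNHG17 replicate 1 far above the other libraries.

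Of 12 mRNA export genes tested, 5 fell and 1 rose (41.7% and 8.33%), with a median of -0.36. This stood beside 19.6% and 19.6% of all genes tested, and 25.7% and 26.7% in the SR members' range of mean CPM. The THO subunit THOC7 (-0.91), the helicase DDX39A (-0.63), NXT1, the partner of the export receptor (-0.82), and the adaptor ALYREF (-0.59) fell beside the export adaptors SRSF3 and SRSF7, and THOC5 rose (0.53). The fifth fall was THOC3 (-0.64), whose libraries overlapped between the groups (adjusted p = 0.0451). NXF1, the receptor that SRSF3 and SRSF7 bind, stood at 3.79 and 5.03 CPM and did not pass (adjusted p = 0.164). Of 9 nonsense-mediated decay factors tested, none fell and none rose by edgeR, with a median of 0.19. DESeq2 and limma-voom each called 0 in either direction. At an edgeR unadjusted p under 0.05, 3 were higher and 0 lower, beside 23.9% and 23.4% of all genes tested. The 3 higher were SMG9 (log2 fold change 0.29), SMG6 (0.26) and SMG8 (0.25), at edgeR adjusted p-values of 0.0597, 0.0733 and 0.0771. UPF1, the central helicase of the pathway, stood at 99.8 and 99.6 CPM, and UPF3B had no count in any library.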
